A study of Homo sapiens with 2 samples.

Results

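A set of 9 genes of the tight junction was described in Panc1, an established human line from a pancreatic ductal adenocarcinoma. They are the claudins CLDN1, CLDN3, CLDN4, CLDN7 and CLDN12, occludin (OCLN), the scaffold proteins TJP1 and TJP3, and LSR. They were read by every probe set whose platform annotation gives 1 gene symbol that is one of these 9, which were 17 of 41097 probe sets with 1 symbol and of 54675 in all. A probe set is a group of short probes that together read 1 transcript. The samples were Panc1/mock, a stable population that carries the vector only, and Panc1/syk-wt, a stable population transfected with wild-type syk, which encodes a non-receptor tyrosine kinase. The series title calls the mock cells drug-resistant. Both populations were kept under hygromycin, passaged for 2 months, held below confluence and harvested at about 70% confluence, and each was read on 1 array. The comparison asks how transcript levels differ between the population transfected with syk and the one with the vector only. With 1 array per population there is no replicate error and no test, and population, RNA preparation and array cannot be told apart.

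Tight junctions seal the space between neighbouring epithelial cells near their apical side. Claudins are membrane proteins with several crossings whose extracellular loops form the seal or let chosen ions pass. Occludin lies in the same strands, and LSR marks the corners where several cells meet and recruits tricellulin there. TJP1 and TJP3, also called ZO-1 and ZO-3, bind the tails of claudins and occludin and tie them to actin. In pancreatic ductal epithelium these proteins hold the duct wall closed.

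Within these genes CLDN7 and CLDN4 were much lower on the syk-wt array, by 5.77-fold and 5.16-fold, and LSR was at least 5.51-fold higher. CLDN1, CLDN12, occludin and TJP1 were bright on both arrays, and their readings differed by at most 0.37 on the log2 scale by the brightest probe set. CLDN3 lay near the limit of signal and TJP3 was dim. Levels are RMA intensities taken as log2 values, and a difference is syk-wt minus mock, so 1 unit is 2-fold. A value at or below 4.77, the highest value among 27 probe sets against bacterial transcripts, is called dim, and a fold with 1 dim side is given as a lower bound against 4.77. Each gene is counted by its brightest probe set over both arrays. Counted so, 2 of 9 genes were lower by 2-fold or more, where 3.65% of 12814 genes were, and 1 was higher by that much, where 3.61% were. With all values raised to the dim limit these counts stayed at 2 and 1, with 3.34% and 3.08% of genes. The remaining 6 were under 2-fold. The median difference of the 9 genes was -0.28, beside 0.01 over the 12814 genes. All 9 genes passed the filter that defines those 12814, a mean level of at least 4.25, and TJP3 did so narrowly at 4.30.

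The promoter sequences of the 3 genes that differed most are shown because these genes differed in opposite directions, and that of occludin because it is a bright tight junction gene with nearly equal levels. They are from RefSeq, build GRCh38.p14, and run from 250 bases before to 50 bases after an annotated start site. All 9 genes matched the promoter table, with 15 windows. Capitals mark CACCTG or its reverse complement CAGGTG, the E-box form known to be bound by the ZEB and Snail repressors of epithelial genes.
CLDN7, chr17:7262429-7262728, minus strand: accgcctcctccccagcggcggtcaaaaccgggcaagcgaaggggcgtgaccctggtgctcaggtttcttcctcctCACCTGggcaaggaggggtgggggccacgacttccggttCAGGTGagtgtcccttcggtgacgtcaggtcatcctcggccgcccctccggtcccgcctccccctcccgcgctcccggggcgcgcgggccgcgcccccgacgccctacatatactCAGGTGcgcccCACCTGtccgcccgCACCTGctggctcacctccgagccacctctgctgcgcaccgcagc
CLDN4, chr7:73830746-73831045, plus strand: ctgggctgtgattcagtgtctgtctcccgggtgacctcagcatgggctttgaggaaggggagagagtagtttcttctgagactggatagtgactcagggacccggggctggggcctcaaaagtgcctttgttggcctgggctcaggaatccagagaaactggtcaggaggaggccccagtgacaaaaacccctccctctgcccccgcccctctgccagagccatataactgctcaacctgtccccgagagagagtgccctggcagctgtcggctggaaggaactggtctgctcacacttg
LSR, chr19:35248752-35249051, plus strand: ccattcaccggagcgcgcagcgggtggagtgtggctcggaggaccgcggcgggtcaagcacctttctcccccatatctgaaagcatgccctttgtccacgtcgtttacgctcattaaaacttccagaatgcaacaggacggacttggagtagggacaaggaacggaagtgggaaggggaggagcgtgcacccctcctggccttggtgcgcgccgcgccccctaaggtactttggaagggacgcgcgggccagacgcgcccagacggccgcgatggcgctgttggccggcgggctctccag
OCLN, chr5:69492540-69492839, plus strand: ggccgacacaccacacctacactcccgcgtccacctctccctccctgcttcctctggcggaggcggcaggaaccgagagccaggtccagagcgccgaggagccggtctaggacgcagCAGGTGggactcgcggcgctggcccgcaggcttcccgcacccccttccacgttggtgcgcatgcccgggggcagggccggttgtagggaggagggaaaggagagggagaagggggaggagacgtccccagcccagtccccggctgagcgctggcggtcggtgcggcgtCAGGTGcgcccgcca

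The CLDN7 window held 5 matches to CACCTG on either strand, starting at positions -174, -135, -20, -9 and 6 from the start site. Of all 35116 windows in the table, 20.6% held at least 1 match and 0.0940% held 5 or more. The second CLDN7 window, chr17:7263164-7263463, lies upstream and held 0. The CLDN4 window and the LSR window held 0 matches each. The wider E-box pattern CANNTG, which includes CACCTG, occurred 2 times in the CLDN4 window and 0 times in the LSR window, while 68.7% of all windows held it at least 1 time. The occludin window shown held 2 CACCTG matches, as many as or fewer than 3.49% of all windows held, and the occludin window that overlaps its start held 1. CLDN3 had 1 match, as did 1 of 4 TJP1 windows and 1 of 2 TJP3 windows, and CLDN1 and CLDN12 had 0. The GC box GGGCGG, bound by SP1-type factors, occurred 6 times in the CLDN3 window and 2 times in the CLDN7 window shown. It occurred 1 time in that of CLDN4 and 0 times in that of LSR. Of all windows, 45.0% held at least 1 and 2.86% held 6 or more. CANNTG reads the same on both strands, and GGGCGG was searched on both. These matches describe the letters in the windows, and no binding was measured.

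**Figure D1:**
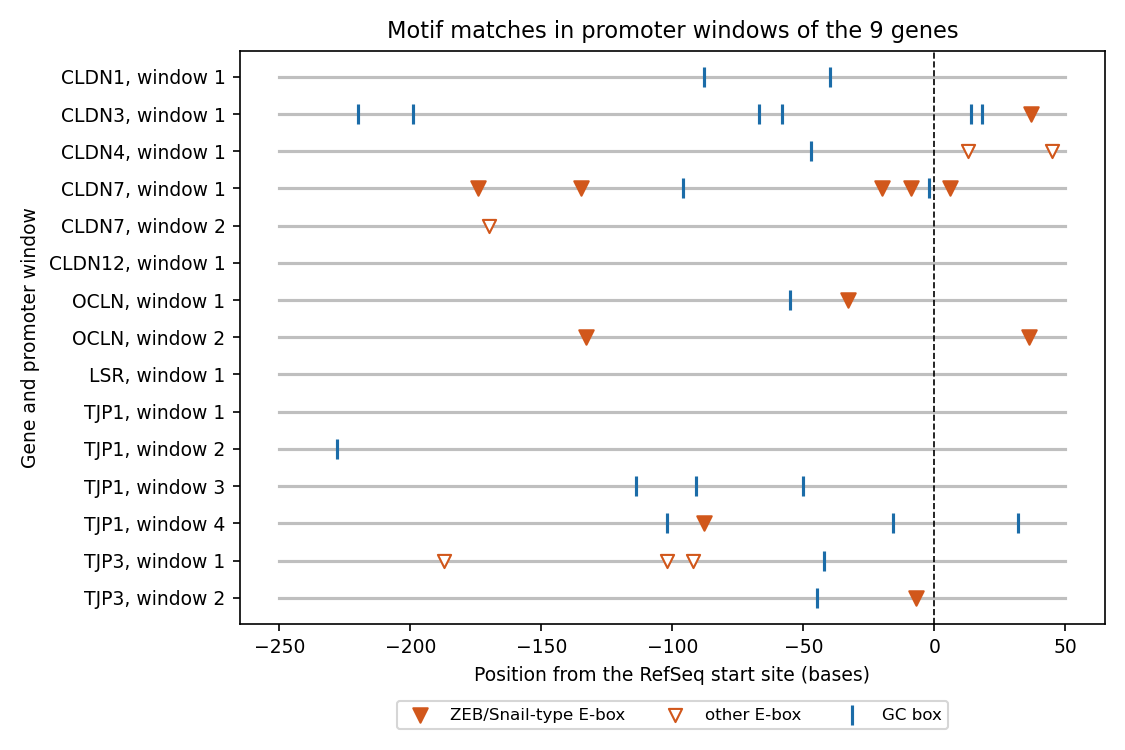
Motif matches in the 15 RefSeq promoter windows of the 9 genes, by position in bases from the annotated start site (dashed line). Filled triangles are CACCTG on either strand, open triangles other CANNTG matches, and bars GGGCGG. The CLDN7 window 1 carries 5 filled triangles, and the LSR window carries no symbol.

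CLDN7, a claudin found along the sides of epithelial cells as well as in the junction, read 8.36 in mock and 5.83 in syk-wt. The difference was -2.53, a 5.77-fold lower level, and both values lay above the bacterial controls. Only 35 of the 12814 genes had a lower difference. CLDN7 has 1 probe set here, so no second reading of the transcript was available. In bulk RNA of a population, fewer cells with the transcript and less transcript per cell cannot be told apart.

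CLDN4, a claudin of ductal and other simple epithelia and a receptor for a clostridial enterotoxin, read 7.98 in mock and 5.61 in syk-wt by its brighter probe set. The difference was -2.37, which is 5.16-fold lower. The second CLDN4 probe set read 3.81 and 4.07, dim on both arrays, and gives no fold. Averaged over both probe sets, the CLDN4 difference was -1.06. Of the 12814 genes, 46 had a lower difference than CLDN4.

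CLDN3, a close relative of CLDN4 that lies next to it on chromosome 7 and binds the same toxin, was near the limit of signal. Its brighter probe set read 5.14 in mock and 4.66, a dim value, in syk-wt. That difference was -0.47, or -0.37 against the dim limit. The other CLDN3 probe set read 4.65 and 3.40, a difference of -1.25 between dim values, and no fold is given for it. Both CLDN3 readings were thus lower on the syk-wt array, but from a level at which little can be said about size.

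CLDN1 and CLDN12 stood apart from these. CLDN1, a barrier-forming claudin, read 9.06 in mock and 9.16 in syk-wt, a difference of 0.10. Its second probe set read 6.84 and 6.89, a difference of 0.06. CLDN12, an unusual claudin that lacks the usual tail motif for binding PDZ domains, read 8.38 and 8.19, a difference of -0.19. A probe set that lists CLDN12 together with another gene was left out. All 3 differences were smaller than 0.35, the pooled SD of the difference between probe sets of 1 gene over 6028 genes. That SD covers probe behaviour and transcript variants only, not variation between cultures.

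Occludin, a membrane protein of the junction strands, was well above the dim limit in its brightest probe set and slightly above it in its dimmest. The brightest probe set read 10.20 in mock and 10.19 in syk-wt, a difference of -0.01. The other 3 occludin probe sets differed by -0.48, 0.18 and -0.17, with levels of 7.97 and 7.49, 7.16 and 7.34, and 5.11 and 4.94. They went both ways, and none reached 2-fold. RefSeq lists a transcribed pseudogene, OCLNP1, and cross-hybridisation with it was not analysed here.

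LSR went the other way from CLDN7 and CLDN4. Its single probe set read 4.69, a dim value, in mock and 7.23 in syk-wt, a measured difference of 2.54. Against the dim limit the difference was 2.46, so LSR was at least 5.51-fold higher. Of the 12814 genes, 45 had a higher difference.

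Of the scaffolds, TJP1 read 9.60 in mock and 9.22 in syk-wt by its brighter probe set, a difference of -0.37. Its second probe set read 6.46 and 6.84, a difference of 0.39 in the other direction. The mean over both was 0.01, so no direction is given for TJP1. RefSeq lists a TJP1 pseudogene, TJP1P1, whose part in either reading was not analysed. TJP3 was dim in all 4 readings, at 4.44 and 4.43 in mock and 4.16 and 3.99 in syk-wt, and has no fold.

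**Figure D2:**
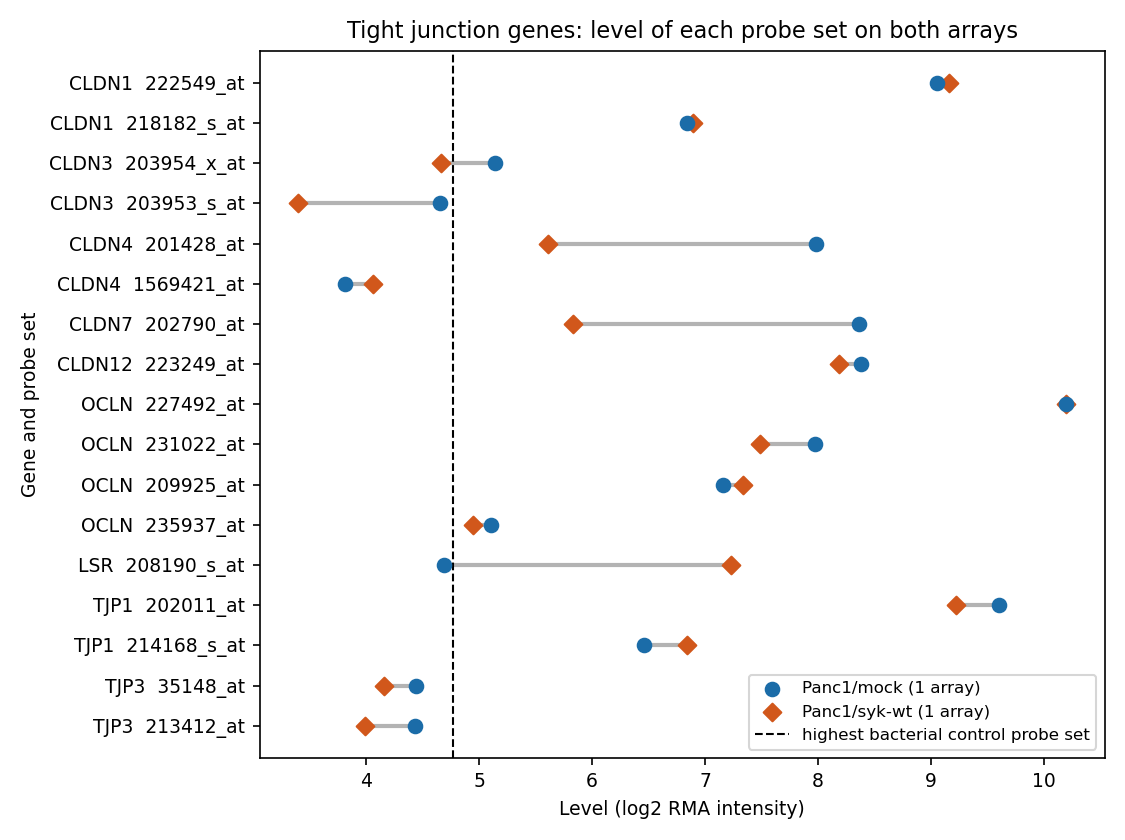
Level of each of the 17 probe sets of the 9 genes on the mock array (circles) and the syk-wt array (diamonds), in log2 RMA intensity, with 1 array per population. The dashed line is the highest bacterial control, 4.77. The long lines are those of the brighter CLDN4 probe set, CLDN7 and LSR, and the 4 occludin probe sets have short ones.

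Over all 17 probe sets, 3 were lower by 2-fold or more (2.06% of the 41097 probe sets with 1 symbol were) and 1 was higher by that much (2.08%). Among the 3 is the dim CLDN3 probe set. Of the 14 that passed the filter on the mean level, 2 were lower and 1 was higher past 2-fold, as were 3.48% and 3.33% of 23066. On both arrays 11 of the 17 lay above the dim limit, 4 were dim on both and 2 on 1 array.

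**Figure D3:**
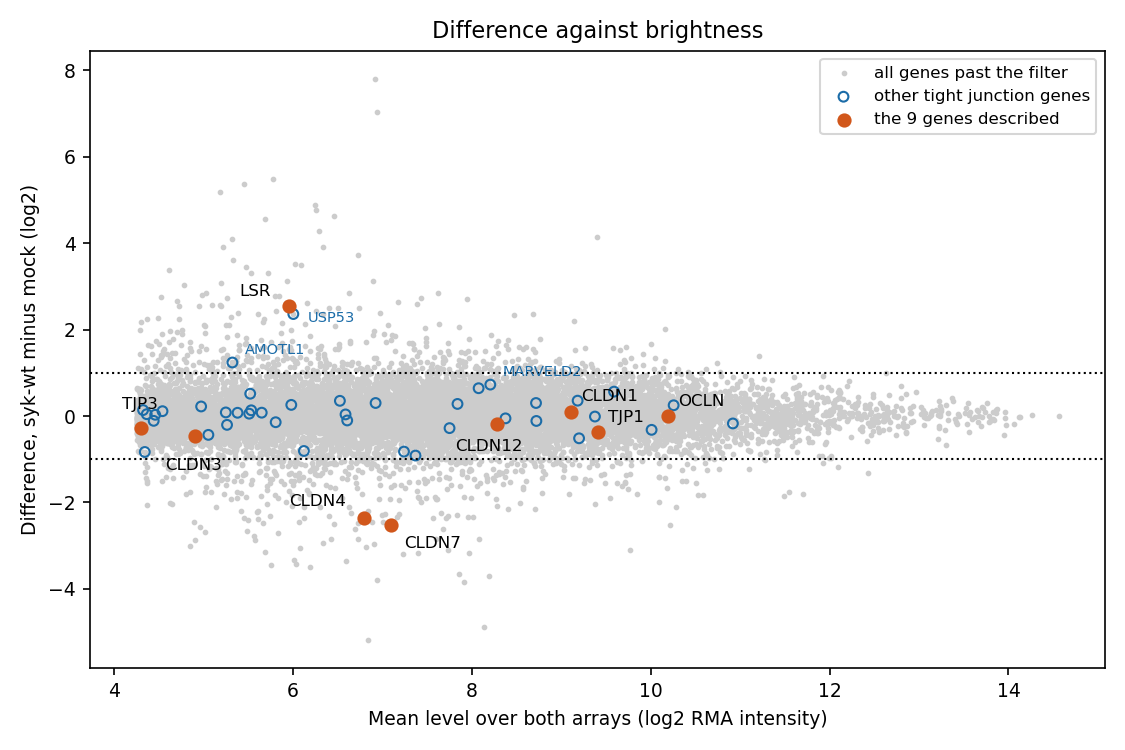
Difference between the arrays (syk-wt minus mock, log2) against the mean level for the 12814 genes past the filter (grey), the 9 genes (filled) and the other tight junction genes (open circles). Dotted lines mark 2-fold. CLDN7, at -2.53, and CLDN4, at -2.37, lie below the lower line and LSR, at 2.54, above the upper one.

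The other claudins were read beside these. Of 15 other claudins with a probe set of their own, 9 were dim on both arrays, 8 passed the filter, and 0 of the 8 differed 2-fold in either direction. With 3.61% of all genes higher and 3.65% lower past 2-fold, 0 of 8 is near the background and sets no claudin apart. Their median over the 8 was -0.04, and no test was possible with 1 array each. CLDN10, a channel-forming claudin, had the largest difference among them, at 7.75 in mock and 8.40 in syk-wt, a difference of 0.64 by that probe set and 0.05 by a dim one. Counted over all 20 claudins, 11 were above the dim limit in mock and 10 in syk-wt, CLDN3 being the one that was not.

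Of the partners of LSR at cell corners, tricellulin (MARVELD2) read 7.84 in mock and 8.57 in syk-wt, a difference of 0.73, under 2-fold. Its second probe set, dim on both, differed by 0.99. ILDR1 and ILDR2, relatives of LSR, were dim on both arrays. MARVELD2 lies next to OCLN on chromosome 5, where occludin differed by -0.01. The genes MARVELD2, CLDN10, PARD3, PARD6A, PARD6B, PARD6G, PRKCI, PRKCZ, EPCAM, ZEB1, SNAI1 and ELF3 lie outside the rule for names. So do those named as dim and the chromosome neighbours. All of these were chosen after their values had been seen.

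The other lists of tight junction components held 66 genes, of which 56 were measured and 40 passed the filter. Of the 40, 2 were higher past 2-fold and 0 lower, with a median of 0.06. The shares over all genes were 3.61% and 3.65%, so these counts lie near the background and are no result about the lists. Both were cytoplasmic scaffolds or their partners. USP53, a deubiquitinase-like protein known at tight junctions, read 4.83 in mock and 7.19 in syk-wt, 5.13-fold higher, but its other probe sets differed by 0.60, 0.34 and, dim on both arrays, 0.10. AMOTL1, an angiomotin relative, was at least 2.26-fold higher by 1 of 4 probe sets (4.70 and 5.94), the other 3 being dim on both arrays. In the polarity complexes, which place the junction, 0 of 12 genes passed 2-fold, which at those shares says nothing about the list. PARD3, the organiser of the PAR complex, was lower in all 4 of its probe sets, which differed by -1.02 to -0.73, with 7.65 and 6.83 in the brightest. The probe set at -1.02 was dim on both arrays, and another was dim in syk-wt. Its partner PARD6B differed by -0.92 by its brightest probe set, and by -0.28 and 0.12 by the other 2, both dim on both arrays. By their brightest probe sets PARD6A, PARD6G and PRKCI differed by 0.35, 0.52 and 0.36, and PRKCZ by -0.28. Of the 12 polarity genes 6 were lower, and their median was 0.02, so no direction is given for these complexes. EPCAM, a membrane protein that binds CLDN7, read 6.77 in mock and 7.08 in syk-wt, a difference of 0.30, where CLDN7 differed by -2.53. JAM-family adhesion proteins had 0 of 3 genes past 2-fold, again too few to read.

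**Figure D4:**
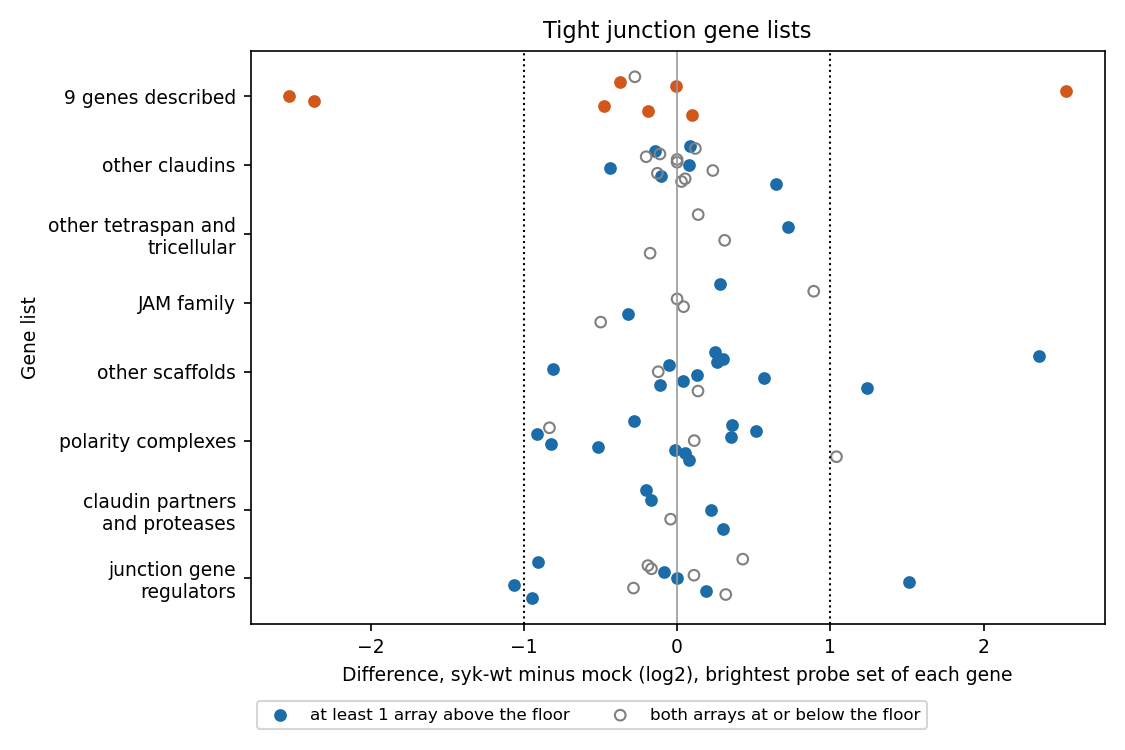
Difference between the arrays (syk-wt minus mock, log2) by the brightest probe set of each gene, for the 9 genes and 7 further lists. Filled points had at least 1 array above 4.77, open points had both at or below it, and dotted lines mark 2-fold. CLDN7 and CLDN4 are the points on the far left, and LSR and USP53 those on the far right.

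Transcription factors known to set the levels of junction genes were measured beside them. Of 13 measured regulators 7 passed the filter, with 1 higher and 1 lower past 2-fold, where 3.61% and 3.65% of all genes were. KLF4, a zinc finger factor of epithelial differentiation, was 2.85-fold higher (6.38 and 7.90), and GRHL3, a grainyhead factor of epithelia, was 2.09-fold lower (6.99 and 5.92). ZEB1, a repressor of epithelial genes that binds CACCTG, read 9.08 in mock and 8.18 in syk-wt, a difference of -0.90, and its other probe sets differed by -0.59 and -0.06, dim on both arrays, and by -0.42, dim in syk-wt. ELF3, an epithelial ETS factor, differed by -0.95 by its brightest probe set, the other 2 being dim. SNAI1, a Snail factor, was above the dim limit on both arrays, at 5.74 in mock and 5.66 in syk-wt, a difference of -0.09. SNAI2, ZEB2, TWIST1 and GRHL2 were dim on both arrays. The part of these factors in the levels of CLDN7, CLDN4 or LSR was not tested.

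Genes next to the members gave the levels of the same chromosome neighbourhood, a look added after the data had been seen. Beside CLDN3 and CLDN4, the nearest measured genes were ABHD11, which differed by -0.82, and METTL27, which differed by 0.25. Beside CLDN7, ELP5 differed by 0.36 and SLC2A4 was dim, and YBX2, next after SLC2A4, differed by -1.20. Beside LSR, USF2 differed by 0.15 and FAM187B was dim on both arrays. None of the genes immediately next to CLDN4, CLDN7 or LSR, CLDN3 included, reached 2-fold by its brightest probe set. With 3.65% of the 12814 genes lower and 3.61% higher by that much, so few neighbours say nothing about these regions. Next to CLDN12, CDK14 read 5.48 in mock and 7.07 in syk-wt, a difference of 1.58.

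The arrays as a whole had medians of 4.26 (mock) and 4.24 (syk-wt). SYK itself gave no check of the labels, so directions rest on the labels. Its brightest probe set read 4.27 in mock and 4.73 in syk-wt, both dim, a difference of 0.46. The other 3, dim as well, differed by -0.09, -0.07 and -0.27. Whether any SYK probe set falls inside the transfected syk sequence was not examined. The 3' minus 5' difference of the ACTB control was 1.95 in mock and 2.37 in syk-wt, and that of the GAPDH control 0.19 and 0.32. The part of either in the differences of CLDN7, CLDN4 and LSR was not tested. All 8 duct epithelium markers were above the dim limit in mock and 7 in syk-wt, CDH1 being the exception. Of these 8 markers 3 were lower past 2-fold and 0 higher, where 3.65% and 3.61% of all genes were. E-cadherin, CDH1, read 6.34 in mock and a dim 3.47 in syk-wt, at least 2.98-fold lower. The duct keratin KRT19 read 10.9 and 9.44, a difference of -1.45, and the mucin MUC1 read 7.31 and 6.27, a difference of -1.04. These are readings of the brightest probe sets. The 3 MUC1 probe sets ranged from -1.18 to -0.88, so not all of them reached 2-fold. The second probe sets of KRT19 and CDH1, dim on both arrays, differed by -0.37 and -0.46. The remaining duct markers, outside the rule for names, were under 2-fold and went both ways. KRT8, KRT7 and KRT18 differed by -0.76, -0.49 and -0.23, and SOX9 and EPCAM by 0.34 and 0.30, each by its brightest probe set. The 4 KRT7 probe sets ranged from -0.49 to 0.16. Of 8 fibroblast markers 7 were dim on both arrays, as were all measured markers of endothelium (6), immune cells (5) and acinar cells (3).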

How the data were processed

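Total RNA of each population was turned into biotin-labelled cRNA from 100 ng and read on an Affymetrix array, per the labels' protocols. The deposited values are one log2 intensity per probe set and array. The submitters' processing notes name RMA (background subtraction, quantile alignment of the arrays and summary of each set's probes) without version or settings, and the log base was inferred from the range of 2.14 to 14.6. RMA compresses differences between dim probe sets. Probe sets were named by the platform annotation, and 1801 with several symbols were left unnamed.

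From these values the difference, the brightest probe set per gene, the 50th percentile filter (4.25) and counts at 2-fold were computed with Python 3.11.15 and pandas 2.3.3. The code was also run on simulated data with planted differences past 2-fold. That run checks the calculation only and says nothing about variation between cultures. The rule for names took the 9 genes and, per list, up to 4 genes past 2-fold against the dim limit, and names outside it are marked in the text. The genes and lists were chosen with earlier results of these data known. Alternatives were scaling, loess, probe set choice, filter and dim limit. The number of arrays limits the precision.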

Additional observations from a re-analysis of the deposited data

How the results depend on the processing

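CLDN7 kept a difference between -2.55 and -2.51 under 7 alternatives and LSR one between 2.46 and 2.56 under 6. CLDN4 lay between -2.38 and -1.06, the latter with the mean or the median over its probe sets, 1 of which is dim. TJP1 was 0.01 and CLDN3 -0.86 with either of these, and occludin, near 0, took both signs. The count of 2 genes at least 2-fold lower held under 10 alternatives, with a median of the 9 genes between -0.28 and -0.19. The 1 gene higher became 0 with the 75th percentile filter and with probe sets ending in _at alone, and the 1 probe set higher became 0 with that filter: LSR has a mean under that filter and no such probe set. CLDN3 has none either, so neither has a value there. The wider list went from 2 higher to 0 with the mean or the median over probe sets and with the 75th percentile filter, and to 3 without a filter and with the filter on the brighter array, and its median lay between -0.01 and 0.09. All genes past 2-fold were 930, but 562 with the mean over probe sets and 486 with the 75th percentile filter. A dim limit of 3.61, the next highest bacterial control, was added after seeing the data and left LSR at 2.54. CLDN3 was -0.47 and TJP3 -0.28 with it. Calls of dim between 3.61 and 4.77 thus rest on the highest control alone. By the limit of 3.61 no TJP3 reading and neither reading of the brightest SYK probe set would be dim. The less bright CLDN3 probe set, at 4.65 in mock and 3.40 in syk-wt, would then be dim in syk-wt alone. No paired analysis was possible because each population has 1 array. Signal near the bacterial controls limits CLDN3, TJP3 and the mock value of LSR.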
